A study of Mus musculus with 16 samples.

Results

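The contrast described here asks whether the effect of voluntary running on gene expression in a demyelinated spinal cord lesion differed between 2 stages of the lesion. It is a difference of differences: exercise minus control at day 10, minus exercise minus control at day 5, on the log2 scale. A value above 0 means that the exercise libraries stood higher against their controls at day 10 than at day 5, and a value below 0 the opposite. All 16 of the 16 libraries of the series entered it, 4 in each of the 4 groups. The mice were C57BL/6, 8 to 12 weeks old, and every group, controls included, had received lysolecithin, a lipid with detergent properties that destroys myelin where it is injected. Exercise mice had free access to a running wheel and control mice were kept in the same way with the wheel locked. Lesion tissue was cut from frozen spinal cord by laser microdissection at day 5 or day 10, and its RNA was amplified by the REPLI-g protocol, selected for poly-A and sequenced strand-specifically in single reads of 75 bases. The labels do not say whether each library came from a separate animal or how many dissected regions it holds, so the p-values measure the spread between libraries.

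After a lysolecithin lesion, microglia and infiltrating macrophages first clear myelin debris while oligodendrocyte precursors divide and move in. The precursors then differentiate and wrap axons again, as blood vessels, astrocytes and the phagocytes themselves change state. Day 5 samples the clearing and recruitment stage and day 10 the stage at which new myelin begins to form, so a running effect that depended on the stage would show as a contrast away from 0.

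The libraries held 8.13 to 13.93 M counts in genes (M, 1000000). Within day 5 the groups did not overlap in depth (11.2 to 13.93 M in control against 8.13 to 10.93 M in exercise). They did not overlap either in the share of counts taken by mt-Rnr2, the mitochondrial large ribosomal RNA (8.05% to 10.28% against 10.91% to 12.94%). At day 10 that share overlapped (8.81% to 12.61% in control, 8.51% to 12.32% in exercise). Within day 5, running cannot be told apart from depth or from this share. Exercise replicate 17 of day 10 stood apart from the other libraries on the second axis of a multidimensional scaling plot, at 1.24 against -1.08 to 0.55, and the authors' deposited day 10 table lists 7 libraries without it. Markers of microglia, oligodendrocytes, astrocytes and endothelium were present in every group, while the summed level of 9 skeletal muscle markers was at most 4.87 CPM (counts per 1000000 counts, on TMM-scaled library sizes) and that of 7 erythrocyte markers found in the table at most 7 CPM. These are whole pieces of tissue, so fewer cells of a type and less RNA per cell cannot be told apart anywhere below.

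Of 15096 genes tested, 0 (0%) passed an adjusted p of 0.05 for the contrast in edgeR's quasi-likelihood test, and the smallest adjusted p, shared by Fkbp5 and Vcam1, was 0.296. At an unadjusted p under 0.05 there were 1376 genes (9.11%), 720 above 0 (4.77%) and 656 below 0 (4.35%), where 1 in 20 of the genes would be 755. The other tools gave 13 genes past the adjusted threshold with DESeq2 and 0 with limma-voom, which had 1295 genes at an unadjusted p under 0.05. Values above 0 made up 51.6% of all genes and values below 0 48.4%, with a median of 0.01. The standard error of the contrast was 0.30 for the median gene, against 0.21 for the exercise effect within either day, since all 4 groups add to it. The 95% confidence interval of the median gene reached 0.64 to either side on the log2 scale, and from 0.35 to 1.65 over the middle 8 in 10 genes. These widths are for a gene taken alone, and a difference has to be larger to pass after adjustment over all genes: of the 1376 genes at an unadjusted p under 0.05, 0 did. The values given below are differences that did not pass the test across all genes, and the genes named are those nearest to passing, those that passed within day 10, and members of gene lists.

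**Figure D1:**
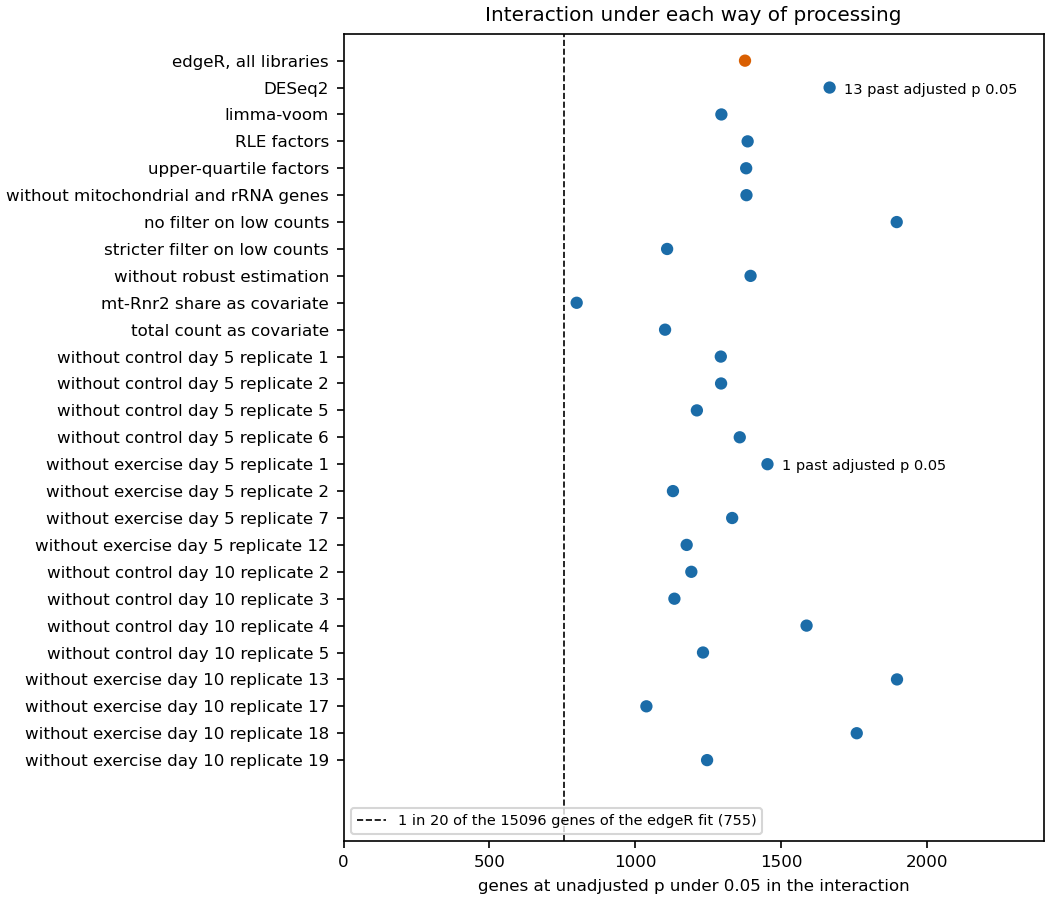
Genes at an unadjusted p under 0.05 in the contrast (x axis, number of genes) for edgeR with all libraries (orange) and for each other tool, scaling, filter, covariate or left-out library (blue). The dashed line is 755 genes, 1 in 20 of the 15096 tested with edgeR on all libraries. Some settings test other numbers, such as 26253 genes with no filter on low counts, where the 1896 genes are 7.22%. The points run from 799 with the mt-Rnr2 share as a covariate to 1897 without exercise replicate 13 of day 10. Only DESeq2 (13) and the fit without exercise replicate 1 of day 5 (1) have genes past the adjusted threshold.

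The exercise effects on the 2 days come from different libraries and can be set side by side. Over the 15096 genes Pearson's r between them was 0.04 and Spearman's rho 0.08, as a description over genes, which share libraries within each day and are not independent. At day 5, 0 genes (0%) passed in edgeR and 1513 were at an unadjusted p under 0.05. The authors' deposited tables hold 271 genes at an adjusted p under 0.05 at day 5. At day 10, without exercise replicate 17, they hold 179. The day 5 count therefore depends on the processing, and why the counts differ was not tested. In edgeR at day 10, 29 genes (0.192%) passed, 16 higher and 13 lower in exercise. Of the 16 that rose at day 10, 15 had a positive value at day 5, where 51.6% of all genes did, with a median of only 0.18 and a range of -0.16 to 0.42. Of the 13 that fell, 8 had a negative value at day 5, where 48.4% of all genes did, and their median there was -0.04 (-0.46 to 0.80). None of the 29 passed the contrast: adjusted p ran from 0.296 to 0.857, with differences of 0.46 to 1.21 for the genes that rose and -4.41 to -0.07 for those that fell. These contrast values reuse the day 10 libraries that chose the genes and are a description only. Some of the genes that fell stood lower on both days: Dbi, the acyl-CoA binding protein, was at -0.46 and -0.80, Cox6c, a subunit of cytochrome c oxidase, at -0.42 and -0.62, and Sf3b6, a splicing factor subunit, at -0.32 and -0.40 on the log2 scale.

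**Figure D2:**
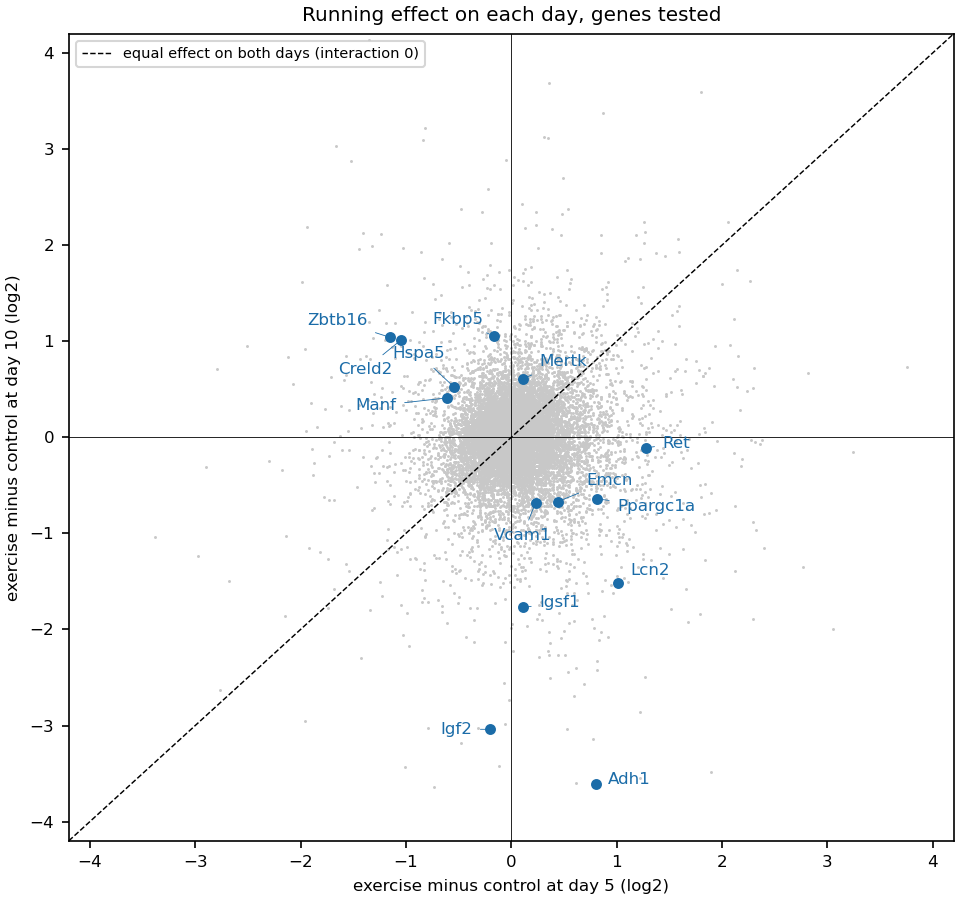
Exercise minus control at day 5 (x axis, log2) and at day 10 (y axis, log2) for the genes tested (grey; 10 genes lie outside the axes), with genes named in the text in blue. On the dashed line the effect is equal on both days; Fkbp5, Hspa5, Creld2, Manf and Zbtb16 lie above it on the left, and Vcam1, Emcn, Lcn2 and Ppargc1a below it on the right.

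The same contrast can be read along the other margin, as the change from day 5 to day 10 in runners minus that in controls. From day 5 to day 10, 1858 genes (12.3%) changed in control and 1520 (10.1%) in exercise. Of these, 733 changed in both in the same direction, 1 in both in opposite directions, 1124 in control only and 786 in exercise only. Not one of the 1124 or the 786 passed the contrast, so a call in a single group was not shown to be a difference between the groups.

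The gene with the smallest p was Fkbp5, a co-chaperone that binds the glucocorticoid receptor and is itself induced by it. At day 5 Fkbp5 stood at 161, 170, 146 and 168 CPM in the control libraries and at 170, 151, 104 and 152 CPM in the exercise libraries. At day 10 Fkbp5 stood at 89.5, 81.4, 119 and 135 CPM in control and at 213, 259, 208 and 200 CPM in exercise. The groups overlapped at day 5, and at day 10 every exercise library lay above every control library and above every day 5 library. The contrast was 1.21 ± 0.22 (log2 ± SE; adjusted p = 0.296; 95% interval 0.74 to 1.68), a 2.31-fold difference between the running effects, made of -0.16 at day 5 and 1.05 at day 10. In control its level fell from day 5 to day 10 (log2 -0.60, adjusted p = 0.0173) and in exercise it rose (0.61, adjusted p = 0.02). It was the 1 gene that passed from day 5 to day 10 in both groups with opposite signs. In the authors' deposited tables, Fkbp5 has a log2 change of -0.16 at day 5 (adjusted p = 0.669) and 0.95 at day 10 (adjusted p = 7.06e-05).

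The 250 bases before the RefSeq start of Fkbp5 are shown because it leads the list. They were read for a steroid receptor element (GAACA and TGTTC with 3 bases between), an E-box (CACGTG) and an ERR element (TCAAGGTCA), on both strands. The window (chr17:28486150-28486399, - strand, GRCm38.p6, RefSeq) holds 1 E-box, in capitals, 169 to 164 bases before the start.
Fkbp5: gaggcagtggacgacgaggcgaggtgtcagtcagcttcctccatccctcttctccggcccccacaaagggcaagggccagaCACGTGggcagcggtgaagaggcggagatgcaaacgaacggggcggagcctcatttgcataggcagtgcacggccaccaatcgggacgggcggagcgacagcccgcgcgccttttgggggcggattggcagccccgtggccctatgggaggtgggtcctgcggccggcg
An E-box occurs in 6.02% of all 32851 such windows, a steroid receptor element in 0.0396% and an ERR element in 0.387%. No match to the other motifs says only that those letters are not in this window. Of the other genes with the smallest p, Hebp2, Acer3 and Adh1 have RefSeq windows as well, with none of the letters searched.

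The members of the glucocorticoid response list, Fkbp5 included, did not move together. Of 17 tested, 9 lay above 0 and 8 below, and 0 passed. At an unadjusted p under 0.05 there were 4 above 0 and 2 below (35.3%, against 9.11% of all genes, or 4.77% above and 4.35% below). The median was 0.03, against 0.01 over all genes. Zbtb16, a zinc finger repressor also known as a steroid-induced gene, was one of the few genes whose groups separated on both days in opposite directions. At day 5 Zbtb16 stood at 1.43, 2.33, 1.16 and 1.31 CPM in the control libraries and at 0.812, 0.76, 0.193 and 1.01 CPM in the exercise libraries. At day 10 Zbtb16 stood at 0.683, 0.636, 0.279 and 0.655 CPM in control and at 1.21, 0.976, 1.68 and 0.812 CPM in exercise. All exercise libraries lay below all controls at day 5 and above them at day 10, at levels near 1 CPM. Its contrast was 2.19 ± 0.69 (adjusted p = 0.461). Sgk1, a steroid-induced kinase, stood at 0.41 ± 0.15 (adjusted p = 0.504) and Ddit4, a stress-induced inhibitor of mTOR signalling, at -0.63 ± 0.25 (adjusted p = 0.512).

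The gene list with the largest share of members at an unadjusted p under 0.05, among lists with at least 10 members tested, was that of heat shock and endoplasmic reticulum (ER) folding. The ER members serve the secretory pathway: translocation (Sec61b), chaperoning (Hspa5, Hsp90b1, Canx, Calr), disulfide formation (Pdia3, Pdia6) and the stress response that controls them (Xbp1). Of 25 members tested, 0 passed, 19 lay above 0 and 6 below, and 10 above 0 and 0 below were at an unadjusted p under 0.05 (40.0%, against 9.11% of all genes), with a median of 0.30. All 10 serve the ER or its stress response: Hspa5, Xbp1, Creld2, Sdf2l1, Selenos, Pdia3, Sec61b, Pdia6, Hsp90b1 and Canx, from 0.39 for Selenos to 2.05 for Creld2. The 15 other members ran from -0.46 for Hspa1a, an inducible cytosolic chaperone, to 0.51 for Calr. They hold further ER genes, namely Calr, the disulfide isomerase Pdia4 (0.30), the cochaperone Dnajb9 (0.18) and the translocon subunit Sec61a1 (0.14), beside the cytosolic and mitochondrial heat shock genes. That the 10 serve the ER was noticed after the values were seen. With exercise replicate 17 of day 10 left out, Pdia3 stood at 0.38, Hsp90b1 at 0.33, Pdia6 at 0.32, Canx at 0.29 and Calr at 0.21.

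Promoters of 4 of these genes are printed because they share a sequence feature. The ER stress element, CCAAT and CCACG with 9 bases between, is a motif known from ER chaperone promoters, and the search for it was added after the list's values were seen. It occurs in 0.113% of the 32851 windows of 250 bases and in 0.13% of the 27025 genes that have one. Of the 25 list members 21 have a window, and 6 of these hold the element. Among the 10 members at an unadjusted p under 0.05, 5 hold it (Hspa5, Creld2, Pdia6, Hsp90b1 and Canx). Among the 11 other members with a window 1 does (Calr, contrast 0.51 ± 0.26). The motif is known from the kind of gene that the list holds, and the 11 others include heat shock genes outside the ER, such as Hspa1a. The split therefore describes the make-up of the list and is no separate evidence for its values. In the windows below, all GRCm38.p6 from RefSeq and read 5′ to 3′ on the gene's strand up to the base before the start, capitals mark the element.
Hspa5: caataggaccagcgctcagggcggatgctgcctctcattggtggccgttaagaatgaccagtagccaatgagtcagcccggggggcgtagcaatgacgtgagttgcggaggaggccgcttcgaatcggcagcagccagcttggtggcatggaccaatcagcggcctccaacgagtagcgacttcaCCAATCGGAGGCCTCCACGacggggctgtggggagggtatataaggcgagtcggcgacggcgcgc
Creld2: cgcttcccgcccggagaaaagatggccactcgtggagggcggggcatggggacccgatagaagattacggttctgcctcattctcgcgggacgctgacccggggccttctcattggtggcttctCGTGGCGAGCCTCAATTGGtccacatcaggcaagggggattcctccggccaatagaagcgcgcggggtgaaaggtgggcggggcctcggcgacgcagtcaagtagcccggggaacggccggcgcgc
Pdia6: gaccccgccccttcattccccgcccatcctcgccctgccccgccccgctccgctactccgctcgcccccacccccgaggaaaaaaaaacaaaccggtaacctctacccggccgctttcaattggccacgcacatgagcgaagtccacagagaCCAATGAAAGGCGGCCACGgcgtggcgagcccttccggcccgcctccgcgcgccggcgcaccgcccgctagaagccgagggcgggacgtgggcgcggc
Canx: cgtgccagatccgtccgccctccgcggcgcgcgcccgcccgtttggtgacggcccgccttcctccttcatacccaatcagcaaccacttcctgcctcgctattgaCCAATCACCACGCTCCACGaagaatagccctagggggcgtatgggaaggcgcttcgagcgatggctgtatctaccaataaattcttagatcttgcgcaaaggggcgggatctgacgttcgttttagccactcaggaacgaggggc
The Hspa5 window is chr2:34771840-34772089, + strand, with the element 65 to 47 bases before the start. That of Creld2 is chr15:88819396-88819645, + strand, with the element on the opposite strand, 126 to 108 bases before the start. Pdia6 has chr12:17266339-17266588, + strand (98 to 80 bases before) and Canx chr11:50325674-50325923, - strand (145 to 127 bases before). A match is a description of letters, and binding was not measured here.

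Hspa5 encodes BiP, the main chaperone of the ER lumen. At day 5 Hspa5 stood at 379, 349, 458 and 420 CPM in the control libraries and at 268, 199, 325 and 311 CPM in the exercise libraries. At day 10 Hspa5 stood at 194, 179, 208 and 155 CPM in control and at 205, 383, 212 and 253 CPM in exercise. At day 5 every exercise library lay below every control library; at day 10 the groups overlapped, with the exercise libraries mostly above. The contrast was 1.06 ± 0.26 (adjusted p = 0.4), made of -0.54 at day 5 and 0.52 at day 10. In the authors' deposited tables its log2 change is -0.55 at day 5 (adjusted p = 0.0322) and 0.27 at day 10 (adjusted p = 0.504), the latter without exercise replicate 17.

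Creld2, a secreted ER stress-induced protein, had the largest value of the list. At day 5 Creld2 stood at 22.8, 45.5, 27.1 and 28.7 CPM in the control libraries and at 10.5, 6.84, 18.6 and 23.7 CPM in the exercise libraries. At day 10 Creld2 stood at 11.1, 9, 17.2 and 5.49 CPM in control and at 10.7, 39.2, 16.5 and 19.4 CPM in exercise. The day 5 groups touched, with 1 exercise library just above the lowest control, and the day 10 groups overlapped. Its contrast was 2.05 ± 0.60 (adjusted p = 0.445). Without exercise replicate 17 of day 10, the highest library of its group, the value was 1.6, and with the mt-Rnr2 share as a covariate 1.35.

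Xbp1, the transcription factor of the unfolded protein response, showed its difference at day 5. At day 5 Xbp1 stood at 200, 203, 228 and 198 CPM in the control libraries and at 133, 131, 163 and 144 CPM in the exercise libraries. At day 10 Xbp1 stood at 152, 132, 157 and 153 CPM in control and at 136, 208, 135 and 179 CPM in exercise. The day 5 groups did not overlap and the day 10 groups did. The contrast was 0.69 ± 0.18 (adjusted p = 0.422). In the authors' deposited tables the log2 change of Xbp1 is -0.54 at day 5 (adjusted p = 0.000298) and 0 at day 10, the latter without exercise replicate 17. Manf, an ER stress-induced factor that was not a list member and is among the 10 genes nearest to passing above 0, behaved alike: 1.02 ± 0.24 (adjusted p = 0.4). At day 5 Manf was measured at 526, 607, 911 and 682 CPM in the control libraries and at 409, 484, 407 and 484 CPM in the exercise libraries. At day 10 Manf was measured at 317, 294, 361 and 355 CPM in control and at 328, 603, 418 and 413 CPM in exercise. Again the groups were apart at day 5, with exercise lower, and overlapped at day 10.

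Summed over the list, the ER and heat shock genes stood at 5250 to 5850 CPM in the control libraries and 4600 to 4990 CPM in the exercise libraries of day 5, without overlap, and at 3790 to 4120 and 3910 to 5670 CPM at day 10. Without exercise replicate 17 the median was 0.19 and 10 members were at an unadjusted p under 0.05 (6.73% of all genes). With total count as a covariate 10 remained in number (7.3% of all genes, median 0.32). With the mt-Rnr2 share as a covariate the median was 0.26 and 3 members were at that level (5.29% of all genes). The mt-Rnr2 share separates the day 5 groups as these genes do, and its part in the result was not tested further.

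**Figure D3:**
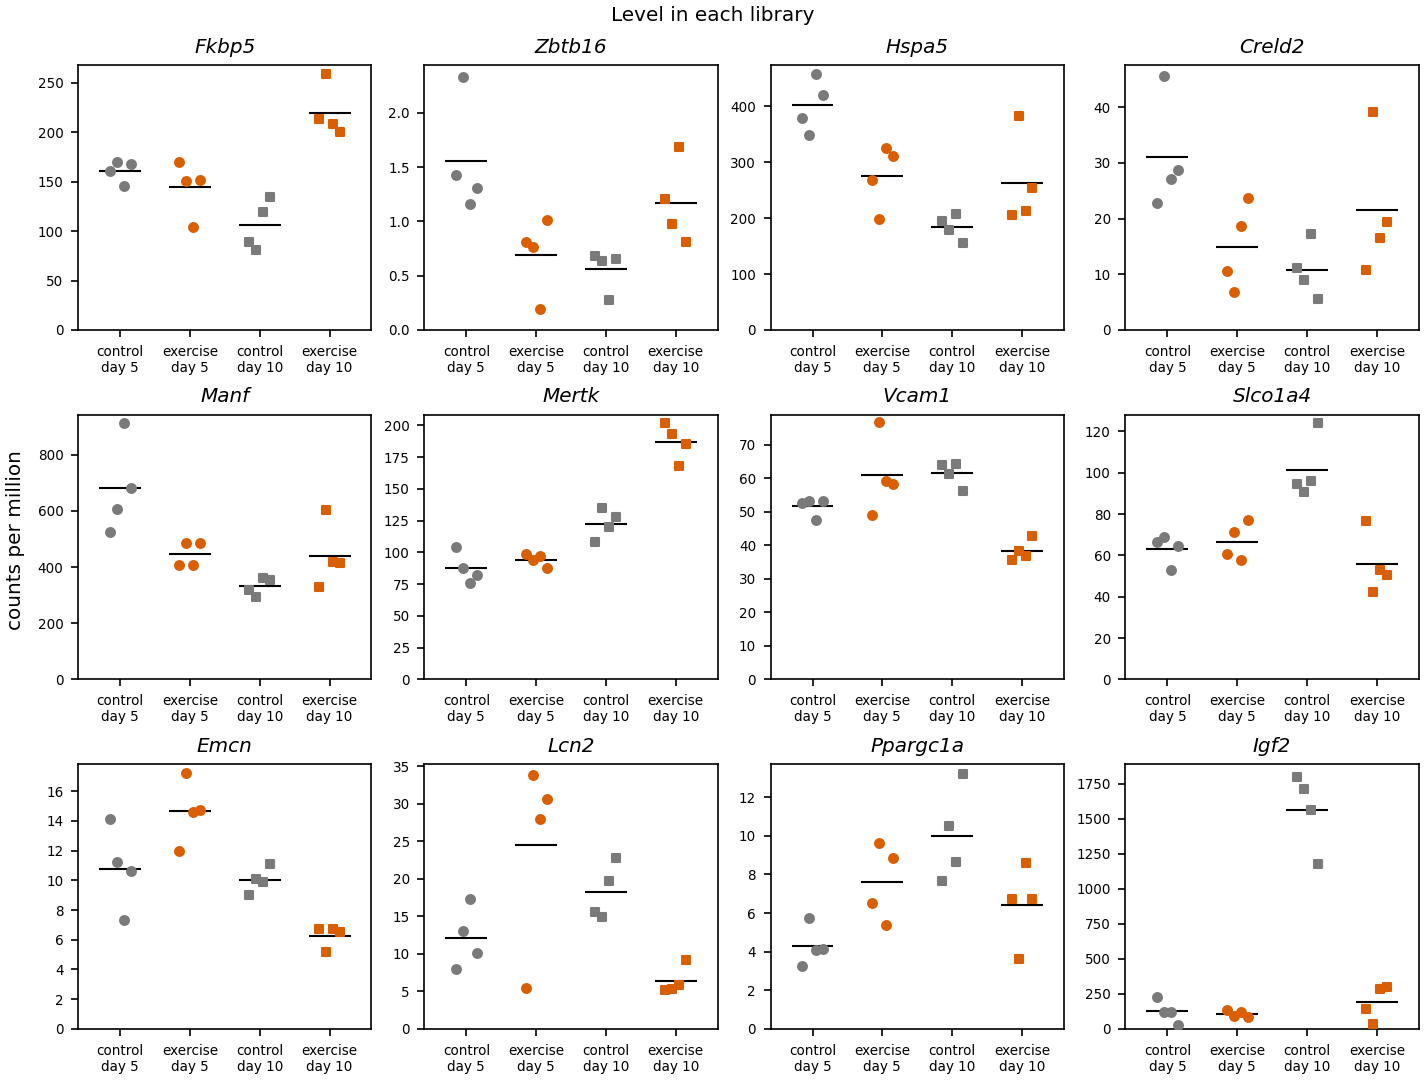
CPM (y axes, each from 0) of 12 genes in every library, in control (grey) and exercise (orange) at day 5 (circles) and day 10 (squares); bars are group means of 4 libraries. Hspa5 and Manf show exercise below control at day 5 without overlap, and Fkbp5, Mertk, Vcam1, Slco1a4, Emcn, Lcn2, Igf2 and Zbtb16 show exercise and control apart at day 10.

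Of the 24 endothelium genes tested 0 passed, 4 lay above 0 and 20 below, with 0 and 5 at an unadjusted p under 0.05 (20.8%, against 9.11% of all genes) and a median of -0.52. The median exercise effect of the list was 0.01 at day 5 and -0.53 at day 10. Vcam1, the adhesion molecule that captures leukocytes on activated endothelium and was not a list member, had the smallest p below 0. At day 5 Vcam1 stood at 52.7, 53.2, 47.7 and 53.2 CPM in the control libraries and at 49, 76.9, 59.3 and 58.4 CPM in the exercise libraries. At day 10 Vcam1 stood at 63.9, 61.3, 64.4 and 56.3 CPM in control and at 35.7, 38.2, 36.9 and 42.9 CPM in exercise. At day 5 the groups overlapped, with 3 exercise libraries above all controls. At day 10 all exercise libraries lay below all controls, and below all day 5 libraries. The contrast was -0.91 ± 0.17 (adjusted p = 0.296), with 0.23 at day 5 and -0.68 at day 10.

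Slco1a4, an organic anion transporter of the blood-brain barrier, had its difference at day 10. At day 5 Slco1a4 stood at 66.4, 69, 52.9 and 64.5 CPM in the control libraries and at 60.8, 71.5, 57.6 and 77 CPM in the exercise libraries. At day 10 Slco1a4 stood at 94.7, 90.9, 95.8 and 124 CPM in control and at 76.9, 42.4, 52.8 and 50.5 CPM in exercise. The 2 day 5 groups overlapped, and at day 10 the controls stood above every other library. Most exercise libraries of day 10 lay below those of day 5. Its contrast was -0.94 ± 0.23 (adjusted p = 0.4), and -0.53 with the mt-Rnr2 share as a covariate.

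Emcn, the sialomucin endomucin of capillaries and veins, had its difference on both days. At day 5 Emcn stood at 14.1, 11.2, 7.31 and 10.6 CPM in the control libraries and at 12, 17.2, 14.6 and 14.7 CPM in the exercise libraries. At day 10 Emcn stood at 9.04, 10.1, 9.87 and 11.1 CPM in control and at 6.71, 5.17, 6.74 and 6.49 CPM in exercise. The groups overlapped at day 5 with exercise mostly higher, and were apart at day 10 with exercise lower. The contrast was -1.11 ± 0.27 (adjusted p = 0.4). Tek, the angiopoietin receptor, stood at -1.54 ± 0.42 (adjusted p = 0.423) and Ly6c1 at -0.59 ± 0.24 (adjusted p = 0.521). The endothelial median was -0.43 without exercise replicate 17 (4 of 24 below 0 at an unadjusted p under 0.05), -0.50 with the mt-Rnr2 share and -0.42 with total count as a covariate.

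Among mural cells, the pericytes and smooth muscle of vessels, 3 of 13 tested members lay above 0 and 10 below, 1 and 2 at an unadjusted p under 0.05 (23.1%, against 9.11% of all genes), with 0 passing and a median of -0.30. That median was -0.10 without control replicate 6 of day 5. Vtn, the matrix protein vitronectin, fell at day 10 and stood at -1.09 ± 0.32 (adjusted p = 0.447) in the contrast. Rgs5, a pericyte regulator of G protein signalling, was at -0.47 ± 0.21 (adjusted p = 0.524) and Cspg4, the NG2 proteoglycan of pericytes and oligodendrocyte precursors alike, at 0.70 ± 0.30 (adjusted p = 0.521). The fibroblast and meninges list had 4 of 18 above 0 and 14 below, 0 and 4 at an unadjusted p under 0.05 (22.2%), 0 passing and a median of -0.20. That median ran from -0.51 (without exercise replicate 18 of day 10) to -0.05 (without control replicate 6 of day 5 or exercise replicate 13 of day 10) with single libraries left out, and was -0.85 with the mt-Rnr2 share as a covariate. Adh1, an alcohol dehydrogenase of retinol metabolism, had the largest value of the genes nearest to passing, -4.41 ± 0.97 (adjusted p = 0.4), at mean levels of 0.628 and 1.1 CPM at day 5 and 5.37 and 0.435 CPM at day 10 (control, exercise). Slc6a13, a GABA and taurine transporter of meninges, stood at -2.57 ± 0.80 (adjusted p = 0.455), and dropped out under the stricter filter on low counts. Summed over the list, the fibroblast and meninges markers ran from 910 to 3290 CPM in control and 1960 to 3220 CPM in exercise at day 5, and from 4440 to 5880 and 1850 to 5350 CPM at day 10. The part of the amount of meningeal tissue in these values was not tested.

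Igf2, an insulin-like growth factor abundant in meninges and choroid plexus, is also on that list. At day 5 Igf2 stood at 230, 121, 123 and 29.6 CPM in the control libraries and at 137, 92.1, 124 and 85.3 CPM in the exercise libraries. At day 10 Igf2 stood at 1800, 1710, 1560 and 1180 CPM in control and at 141, 37, 285 and 299 CPM in exercise. At day 5 the groups overlapped, and at day 10 all controls lay far above every other library. The contrast was -2.84 ± 0.77 (adjusted p = 0.424), with -0.20 at day 5 and -3.04 at day 10. Igfbp4, a binding protein that holds insulin-like growth factors, had the same shape on a smaller scale. At day 5 Igfbp4 stood at 72.7, 74, 66.4 and 53.6 CPM in the control libraries and at 50, 75.1, 54.7 and 78.4 CPM in the exercise libraries. At day 10 Igfbp4 stood at 140, 152, 162 and 114 CPM in control and at 68.8, 66, 87 and 71 CPM in exercise. Only the day 10 controls stood apart, above all other libraries. Its contrast was -0.91 ± 0.22 (adjusted p = 0.4). Igsf1, an immunoglobulin superfamily protein that fell at day 10, stood at -1.88 ± 0.48 (adjusted p = 0.4). Igf1, the factor that phagocytes and astrocytes supply to differentiating oligodendrocytes, stood at 0.01 ± 0.25 (adjusted p = 0.994), with exercise effects of -0.18 and -0.17. Over the whole IGF axis 9 of 16 members lay above 0 and 7 below, 0 passed, 0 and 2 were at an unadjusted p under 0.05 (12.5%), and the median was 0.01, which changed sign between settings.

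The growth factor and receptor list had 10 of 24 above 0 and 14 below, with 0 passing, 1 and 6 at an unadjusted p under 0.05 (29.2%) and a median of -0.06. The members nearest to passing were Cxcl12, the chemokine that guides precursors (-0.86 ± 0.28 (adjusted p = 0.49)), Bdnf, the brain-derived neurotrophic factor (-2.24 ± 0.88 (adjusted p = 0.509)), Nrg1, the ligand of ErbB receptors on glia (-1.62 ± 0.64 (adjusted p = 0.512)), and Ngfr, the low-affinity neurotrophin receptor (-1.6 ± 0.65 (adjusted p = 0.521)). Ngfr was at -0.99 without control replicate 4 of day 10. Cxcl12 fell at day 10. Bdnf was low throughout, with group means of 1.58, 2.64, 1.65 and 0.565 CPM in the order control and exercise at day 5, control and exercise at day 10. In that order Nrg1 had means of 1.32, 2.8, 1.49 and 1.02 CPM.

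Every tested marker of homeostatic microglia, the resident phagocytes in their resting state, lay above 0: 16 of 16, where 51.6% of all genes did. None passed, 5 were at an unadjusted p under 0.05 (31.2%), and the median was 0.51, with a median exercise effect of -0.02 at day 5 and 0.52 at day 10. Mertk, the receptor that engulfs apoptotic cells and myelin, had the smallest p of the list. At day 5 Mertk stood at 104, 87.6, 75.9 and 82.5 CPM in the control libraries and at 98.4, 94, 96.8 and 87.8 CPM in the exercise libraries. At day 10 Mertk stood at 108, 135, 120 and 128 CPM in control and at 202, 193, 168 and 185 CPM in exercise. The day 5 groups overlapped, and at day 10 all exercise libraries lay above all controls. Its contrast was 0.50 ± 0.15 (adjusted p = 0.452). Siglech, a sialic acid-binding lectin, stood at 1.0 ± 0.43 (adjusted p = 0.521) and the purinergic receptor P2ry12 at 0.94 ± 0.44 (adjusted p = 0.539). Without exercise replicate 17, which has the highest microglial level of all libraries, 16 of 16 were still above 0, the median was 0.39 and 2 were at an unadjusted p under 0.05. The summed level of the 16 markers overlapped between control and exercise on both days (11000 to 15200 and 9500 to 12400 CPM at day 5, 14200 to 18100 and 14600 to 23200 CPM at day 10).

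Of 24 phagocytosis and lipid handling genes 20 lay above 0 and 4 below, 2 and 0 at an unadjusted p under 0.05 (8.33%, below the 9.11% of all genes), with a median of 0.28. Without exercise replicate 17 the median was 0.03, with 13 above 0 and 11 below. Lpl, the lipase that frees fatty acids from lipoproteins, stood at 0.47 ± 0.19 (adjusted p = 0.521), and Apoe, the main lipid carrier of glia, at -0.16 ± 0.16 (adjusted p = 0.786). Aif1, the Iba1 marker of microglia and macrophages, was at 0.58 ± 0.30 (adjusted p = 0.569), or 1.02 with the mt-Rnr2 share as a covariate, and Lag3, a checkpoint receptor, at -0.31 ± 0.52 (adjusted p = 0.872). Cd36, a scavenger receptor, was at -0.35 ± 0.49 (adjusted p = 0.846) and Cd68, a lysosomal glycoprotein of phagocytes, at 0.21 ± 0.28 (adjusted p = 0.846). Both were sensitive to exercise replicate 17, without which they were at -0.67 and -0.05. The complement list had 9 of 16 above 0 and 7 below, 3 and 3 at an unadjusted p under 0.05 (37.5%) and a median of 0.04. Its receptors Itgam (0.74 ± 0.27) and C5ar1 (0.49 ± 0.20), which rose at day 10, and Itgb2 (0.50 ± 0.21) were above 0, and Serping1, the inhibitor of C1, was below at -0.95 ± 0.35 (adjusted p = 0.504). Itgam stood at 0.49 and Itgb2 at 0.30 with exercise replicate 17 left out. Class II antigen presentation had 7 of 13 above 0 and 6 below, 2 and 0 at an unadjusted p under 0.05 (15.4%), with H2-DMa, the peptide exchange factor that rose at day 10, at 0.93 ± 0.30 (adjusted p = 0.465). Havcr2, the checkpoint receptor Tim-3, and Dock2, an activator of Rac in leukocytes, rose at day 10 and stood at 0.76 ± 0.22 and 0.53 ± 0.16. None of these lists had a member past the threshold.

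The monocyte-derived macrophage list had 4 of 14 above 0 and 10 below, 1 and 3 at an unadjusted p under 0.05 (28.6%, against 9.11% of all genes), with a median of -0.31. That median was -0.54 without exercise replicate 18 of day 10, -0.63 with the mt-Rnr2 share and -0.19 with total count as a covariate. Plac8 stood at -1.98 ± 0.53 (adjusted p = 0.422) and Ccr2, the chemokine receptor of inflammatory monocytes, at -1.13 ± 0.45 (adjusted p = 0.52), while Fn1, fibronectin, was above 0 at 0.92 ± 0.43 (adjusted p = 0.54). With the mt-Rnr2 share as a covariate Ccr2 was at -0.69 and Fn1 at 0.40. Of 7 neutrophil genes tested 1 lay above 0 and 6 below. At an unadjusted p under 0.05 there were 0 and 4 (57.1%, against 9.11% of all genes). Once exercise replicate 17 of day 10 was left out, 0 and 2 were at that level (6.73% of all genes). Of 15 lymphocyte genes 5 were tested, 1 above 0 and 4 below, with 0 at an unadjusted p under 0.05. The interferon response list had 2 of 23 above 0 and 21 below, 0 and 2 at an unadjusted p under 0.05 (8.7%, below the share of all genes) and a median of -0.53. That median was -0.11 without exercise replicate 12 of day 5, -0.30 without control replicate 2 of day 10 and -0.24 with limma-voom. Its members Oasl2 and Rtp4 stood at -1.49 ± 0.64 (adjusted p = 0.521) and -1.31 ± 0.57 (adjusted p = 0.521), and at -0.98 and -0.76 without those 2 libraries in turn. Lcn2, a siderophore-binding protein of neutrophils and reactive astrocytes, was the neutrophil gene nearest to passing. At day 5 Lcn2 stood at 7.95, 13, 17.3 and 10.1 CPM in the control libraries and at 5.42, 33.8, 28 and 30.6 CPM in the exercise libraries. At day 10 Lcn2 stood at 15.6, 14.9, 19.7 and 22.8 CPM in control and at 5.12, 5.27, 5.85 and 9.23 CPM in exercise. At day 5, 3 exercise libraries lay above all controls and replicate 1 lay below them. At day 10 all exercise libraries lay below all controls. The contrast was -2.54 ± 0.56 (adjusted p = 0.4), and without exercise replicate 1 of day 5 it was -2.88 (adjusted p = 0.00338), the 1 call made in any edgeR or limma-voom fit. The adjusted p of Lcn2 ran from 0.00338 to 0.839 over the alternatives. Among the other neutrophil genes, S100a8 stood at 0.385 to 1.96 CPM and S100a9 at 0.145 to 1.32 CPM in the group means. Csf3r, the receptor of granulocyte colony-stimulating factor and the 1 member above 0 (0.27), held most of the level of the list, with group means of 79.2 and 76 CPM at day 5 and 161 and 186 CPM at day 10 (control, exercise), and Mmp8, a collagenase, stood at 2.83 to 15.2 CPM. Among reparative macrophage genes, 8 of 11 above 0 and 3 below, Arg1, the arginase of that state, stood at 0.24 ± 0.70 (adjusted p = 0.944) with group means near 309 CPM in control at day 5 and 32.1 CPM in control at day 10.

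Proliferation genes lay mostly above 0, with 23 of 26 above and 3 below, 9 and 0 at an unadjusted p under 0.05 (34.6%), 0 passing and a median of 0.57. Ube2c, the ubiquitin-conjugating enzyme of mitotic exit, had the smallest p. At day 5 Ube2c stood at 92.2, 105, 122 and 110 CPM in the control libraries and at 77.4, 59.4, 83.2 and 92.7 CPM in the exercise libraries. At day 10 Ube2c stood at 23.2, 18.9, 27.4 and 23.1 CPM in control and at 19.1, 51.1, 22.3 and 36.2 CPM in exercise. Levels were lower at day 10 in both groups, and the groups overlapped on both days. Its contrast was 0.93 ± 0.33 (adjusted p = 0.504), and 0.62 without exercise replicate 17 of day 10, which stands highest in its group. Birc5, a subunit of the chromosomal passenger complex, was at 1.2 ± 0.44 (adjusted p = 0.504), and Mki67, the proliferation antigen, at 0.59 ± 0.34 (adjusted p = 0.601). The list rests in part on that library: without it the median was 0.30, 19 members lay above 0 and 7 below, and 3 and 1 were at an unadjusted p under 0.05 (6.73% of all genes). With the mt-Rnr2 share as a covariate the median was 0.25 and 2 members were at that level.

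**Figure D4:**
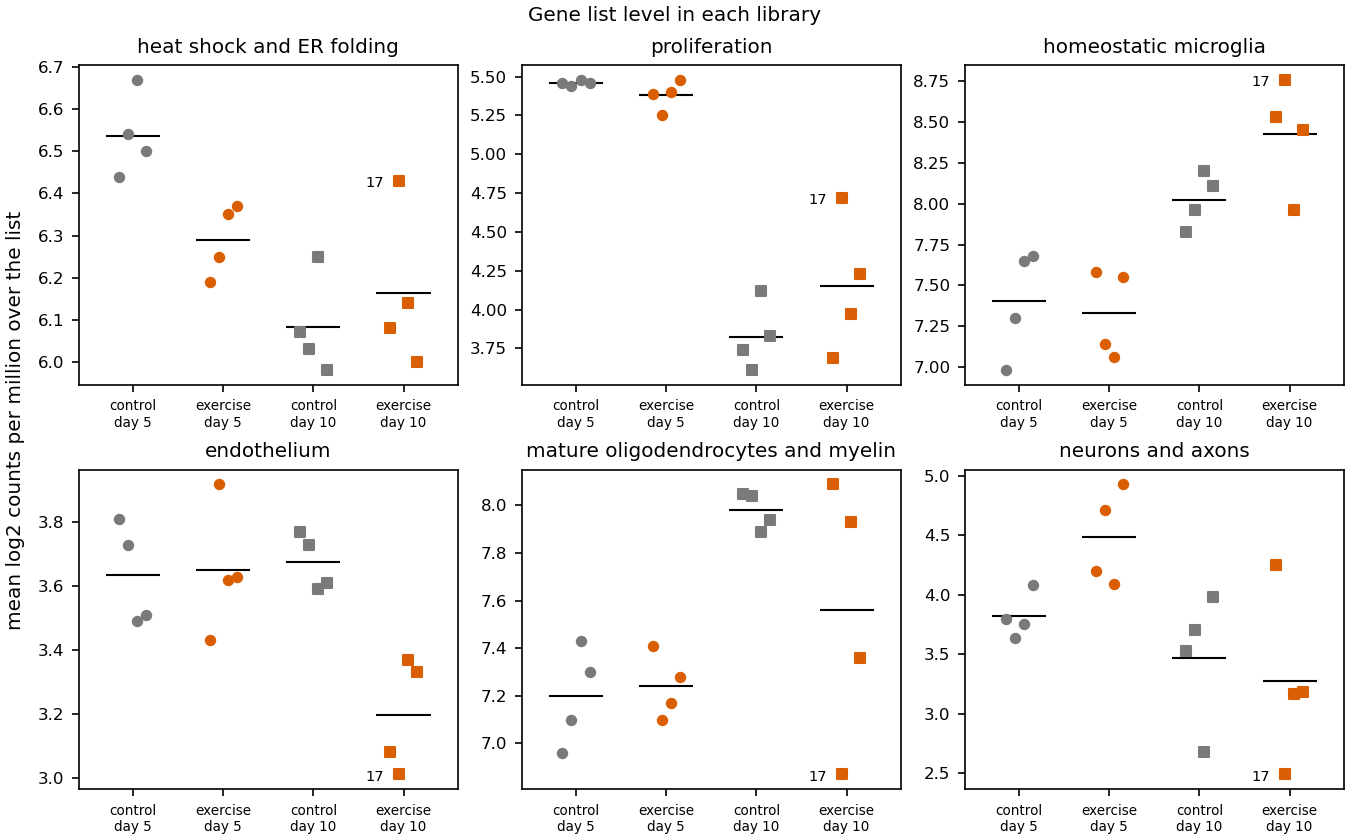
Mean log2 CPM over the members of 6 gene lists (y axes) in each library, in control (grey) and exercise (orange) at day 5 (circles) and day 10 (squares); bars are group means of 4 libraries and 17 marks the exercise replicate of day 10 that stands apart. That library is the highest of its group for ER folding, proliferation and microglia and the lowest for endothelium, myelin and neurons.

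Genes of the oligodendrocyte lineage showed no member past the threshold. Of 15 precursor genes 4 lay above 0 and 11 below (1 and 0 at an unadjusted p under 0.05, 6.67%, median -0.14), of 13 premyelinating genes 1 above and 12 below (0 and 1, 7.69%, median -0.19), and of 22 mature oligodendrocyte and myelin genes 2 above and 20 below (0 and 2, 9.09%, median -0.39). None of the 3 shares exceeded the 9.11% of all genes. Mbp, myelin basic protein, which the study also stained in sections, was followed in every library. At day 5 Mbp stood at 4120, 6240, 4990 and 5100 CPM in the control libraries and at 7330, 5290, 4850 and 6320 CPM in the exercise libraries. At day 10 Mbp stood at 9420, 8890, 9750 and 10000 CPM in control and at 10300, 5500, 8800 and 5660 CPM in exercise. The groups overlapped on both days, and 3 exercise libraries of day 10, replicates 17, 18 and 19, lay below all controls, replicate 18 by little. The contrast was -0.55 ± 0.27 (adjusted p = 0.549). Mog, a surface glycoprotein of myelin, stood at -0.26 ± 0.32 (adjusted p = 0.828). Myrf, the transcription factor that switches on myelin genes, was at -0.38 ± 0.32 (adjusted p = 0.73), Sirt2, a deacetylase of premyelinating and mature cells, at -0.48 ± 0.20 (adjusted p = 0.521), Pdgfra, the growth factor receptor of precursors, at 0.17 ± 0.16 (adjusted p = 0.759), and Olig2, the lineage factor that the study stained, at -0.04 ± 0.20 (adjusted p = 0.973). Without exercise replicate 17, which has the lowest myelin level of the day 10 libraries, the myelin median was -0.22 with 5 of 22 above 0 and 17 below, the precursor median -0.05 and the premyelinating median -0.07. Without it Mog stood at -0.04 and Myrf at -0.14. Without exercise replicate 13 of day 10 the myelin median was -0.63, and without exercise replicate 18 the premyelinating median was -0.35.

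Cholesterol synthesis, on which myelin growth depends, had 3 of 21 members above 0 and 18 below, 0 and 5 at an unadjusted p under 0.05 (23.8%), 0 passing and a median of -0.28 (-0.21 without exercise replicate 17). Insig1, which holds back the activation of the sterol-regulated factors, stood at -0.49 ± 0.17 (adjusted p = 0.504) and Pmvk, phosphomevalonate kinase, at -0.75 ± 0.32 (adjusted p = 0.521).

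Neuronal and axonal genes had the lowest median of the lists with at least 10 members, -0.93, with 2 of 24 above 0 and 22 below, 0 passing and 0 and 2 at an unadjusted p under 0.05 (8.33%, against 9.11% of all genes). Ret, a receptor of glial cell line-derived neurotrophic factors in motor neurons, was nearest to passing. At day 5 Ret stood at 22.2, 16.1, 13.4 and 13.8 CPM in the control libraries and at 37.3, 47.3, 31.7 and 43.4 CPM in the exercise libraries. At day 10 Ret stood at 13, 8, 9.12 and 9.5 CPM in control and at 16.2, 3.12, 7.89 and 9.64 CPM in exercise. At day 5 all exercise libraries lay above all controls, and at day 10 the groups overlapped. The contrast was -1.39 ± 0.45 (adjusted p = 0.484). In the authors' deposited tables the log2 change of Ret is 1.28 at day 5 (adjusted p = 1.56e-06). At day 10, without exercise replicate 17, it is 0.17 (adjusted p = 0.929). Slc5a7, the choline transporter of cholinergic neurons, stood at -1.44 ± 0.55 (adjusted p = 0.505), Nefh, the heavy neurofilament subunit, at -1.38 ± 0.70 (adjusted p = 0.569) and Snap25, a synaptic fusion protein, at -1.2 ± 0.86 (adjusted p = 0.677). Summed over the list, neuronal genes stood at 1030 to 1160 CPM in control and 1110 to 1880 CPM in exercise at day 5. The median was -0.07 with the mt-Rnr2 share as a covariate and -0.88 with total count, and -0.59 without exercise replicate 12 of day 5. With the mt-Rnr2 share as a covariate Nefh stood at -0.48 and Snap25 at 0.08. The amount of grey matter in the dissected pieces was not measured, and its part in the result was not tested.

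Of 18 homeostatic astrocyte genes 2 lay above 0 and 16 below, 0 and 2 at an unadjusted p under 0.05 (11.1%, against 9.11% of all genes), with a median of -0.50. That median was -0.22 without exercise replicate 12 of day 5 and -0.26 with the mt-Rnr2 share as a covariate. The connexins Gjb6 (-1.05 ± 0.33 (adjusted p = 0.455)) and Gja1 (-0.75 ± 0.24 (adjusted p = 0.461)) were nearest to passing, and Aqp4, the water channel of astrocyte endfeet, stood at -0.48 ± 0.24 (adjusted p = 0.558). Reactive astrocyte genes had 6 of 19 above 0 and 13 below, 1 and 3 at an unadjusted p under 0.05 (21.1%). Within that list Cp, the ferroxidase ceruloplasmin, was at -1.0 ± 0.27 (adjusted p = 0.423) and Serpina3n, a secreted protease inhibitor, at 0.46 ± 0.21 (adjusted p = 0.54), while Gfap, the astrocyte filament protein, was at -0.36 ± 0.27 (adjusted p = 0.687).

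Ppargc1a encodes PGC1a, the coactivator of mitochondrial biogenesis that the title of the study names. At day 5 Ppargc1a stood at 3.26, 5.75, 4.1 and 4.14 CPM in the control libraries and at 6.5, 9.63, 5.4 and 8.84 CPM in the exercise libraries. At day 10 Ppargc1a stood at 7.67, 10.5, 8.66 and 13.2 CPM in control and at 6.71, 3.61, 8.6 and 6.7 CPM in exercise. At day 5, 3 exercise libraries lay above all controls, and at day 10, 3 lay below all controls, with overlap on both days. The contrast was -1.45 ± 0.39 (adjusted p = 0.422), made of 0.81 at day 5 and -0.64 at day 10, with adjusted p from 0.1 to 0.927 over the alternatives, and -1.03 with the mt-Rnr2 share as a covariate. In the authors' deposited tables its log2 change is 0.81 at day 5 (adjusted p = 0.103) and -0.45 at day 10 (adjusted p = 0.622). Whole-tissue libraries do not say in which cells Ppargc1a is expressed. The PGC1a axis as a whole, Ppargc1a included, was spread around 0, with 9 of 24 above and 15 below and a median of -0.05. Of these, 0 passed, and 1 and 2 were at an unadjusted p under 0.05 (12.5%, against 9.11% of all genes). Sirt1, a deacetylase that activates PGC1a, stood at 0.62 ± 0.23 (adjusted p = 0.504) and Sod2, the mitochondrial superoxide dismutase, at -0.53 ± 0.23 (adjusted p = 0.521).

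Nuclear genes of oxidative phosphorylation had 9 of 50 members above 0 and 41 below, but 0 and 2 at an unadjusted p under 0.05 (4.0%), below the share of all genes, with a median of -0.17 that was -0.01 with the mt-Rnr2 share as a covariate. Uqcrc1, a core subunit of complex III, was at -0.83 ± 0.28 (adjusted p = 0.504) and Cox5a, a subunit of complex IV, at -0.68 ± 0.26 (adjusted p = 0.509). The mitochondrially encoded genes, 1 of 9 above 0 and 8 below with a median of -0.37, were at -0.05 with that covariate. Glycolysis and hypoxia genes had 17 of 22 above 0 and 5 below, 5 and 1 at an unadjusted p under 0.05 (27.3%) and a median of 0.30 (0.11 without exercise replicate 17). Slc16a3, the exporter of lactate from glycolytic cells, stood at 0.88 ± 0.32 (adjusted p = 0.504) and Ldha, the A subunit of lactate dehydrogenase, at 0.67 ± 0.30 (adjusted p = 0.525), or 0.30 without exercise replicate 17, while Slc16a1, the monocarboxylate transporter of oligodendrocytes and endothelium, stood at -0.49 ± 0.18 (adjusted p = 0.504). Of 76 ribosomal protein genes 69 lay above 0, with a median of only 0.17 and 0 at an unadjusted p under 0.05. Leaving out exercise replicate 17 of day 10 gave 53 above and 23 below and a median of 0.06.

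**Figure D5:**
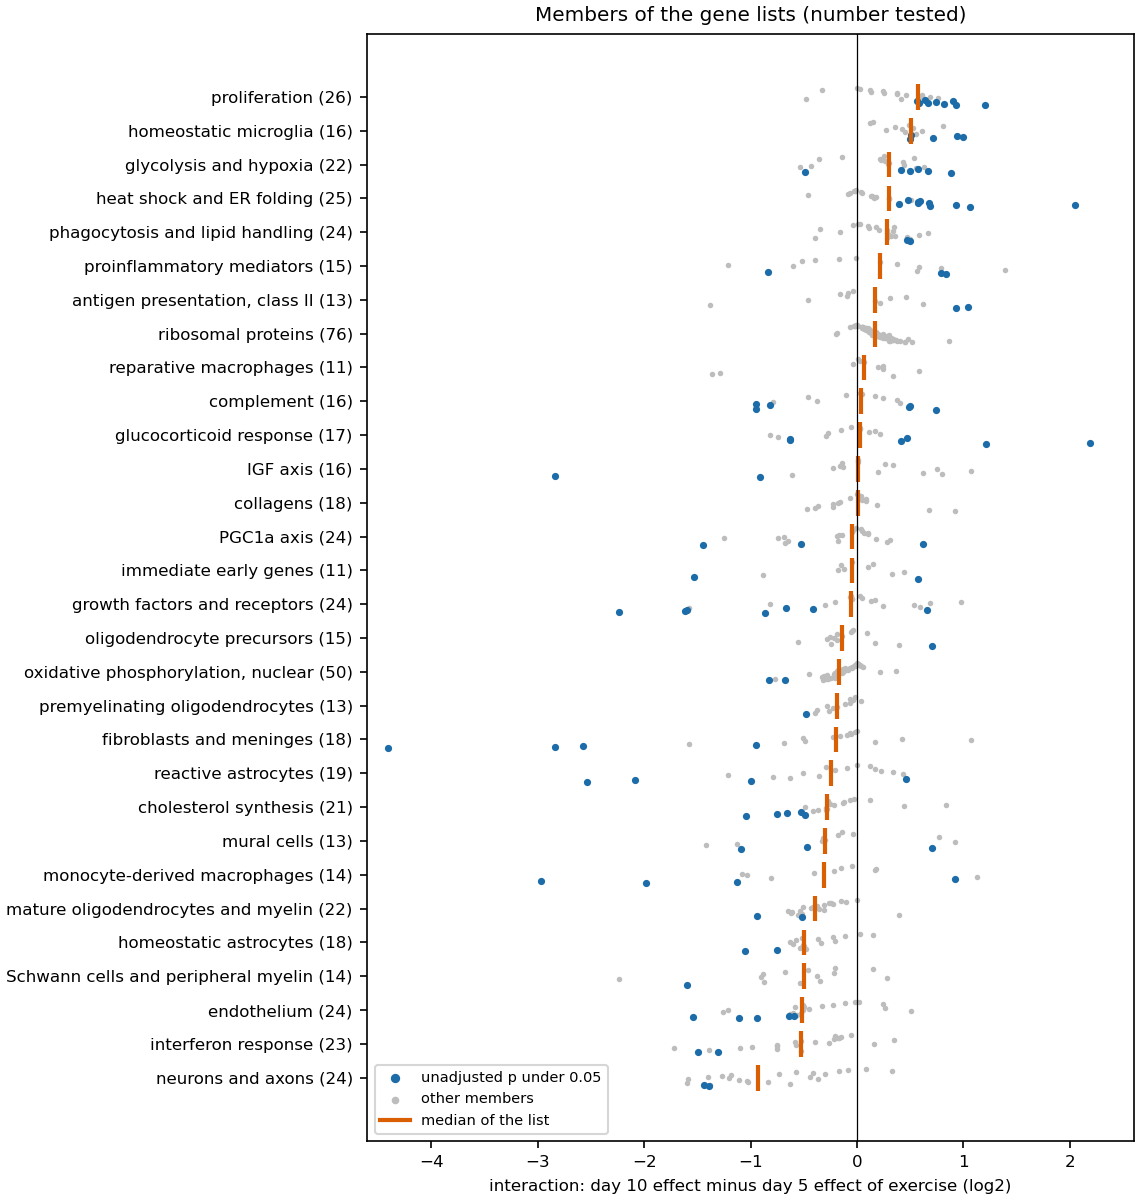
Contrast (x axis, log2) of each tested member of the 30 gene lists with at least 10 members tested, with members at an unadjusted p under 0.05 in blue, others in grey and the list median in orange; the vertical spread within a row has no meaning. Proliferation, microglia, glycolysis and ER folding have medians of 0.30 or more, neurons, interferon response and endothelium have medians below -0.50, and no member of any list passed the adjusted threshold.

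The lists not yet described had 0 members past the threshold as well. Schwann cell and peripheral myelin genes had 2 of 14 above 0 and 12 below (median -0.50, and -0.32 without exercise replicate 17), collagens 10 of 18 above and 8 below (median 0.01, and -0.74 with the mt-Rnr2 share as a covariate), proinflammatory mediators 8 of 15 above and 7 below (median 0.22, and 0.10 without exercise replicate 17) and immediate early genes 5 of 11 above and 6 below (median -0.05). Alox5, the leukotriene-forming lipoxygenase among the proinflammatory mediators, rose at day 10 and stood at 0.84 ± 0.31 (adjusted p = 0.504) in the contrast.

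Few genes had exercise and control libraries apart on both days in opposite directions. The groups did not overlap at day 5 for 1101 genes (7.29%) and at day 10 for 888 genes (5.88%). In 4 genes (0.0265%) exercise lay above at day 5 and below at day 10, and in 3 (0.0199%) the reverse. Among the 4 were Filip1, a filamin-interacting protein (day 5 0.85, day 10 -1.21), Rrad, a Ras-like GTPase (0.85, -0.75), and Kdm6b, a demethylase of histone H3 lysine 27 (0.40, -0.54). The 3 were Zbtb16, Sipa1l2, a regulator of the GTPase Rap (-0.32, 0.34), and Mrps15, a mitochondrial ribosomal protein (-0.36, 0.22). The adjusted p of the genes named here ran from 0.4 to 0.461.

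The remaining genes nearest to passing serve varied functions. Above 0 were Acer3, an alkaline ceramidase (0.99 ± 0.21), Pag1, a membrane adaptor of Src family kinases (1.02 ± 0.22), Tars2, the mitochondrial threonyl-tRNA synthetase (0.96 ± 0.22), Ssh2, a cofilin phosphatase (0.90 ± 0.21), Eml4, a microtubule-binding protein (0.67 ± 0.16), and Mrc2, an endocytic collagen receptor (1.1 ± 0.26). Acer3, Pag1, Tars2, Ssh2, Eml4 and Mrc2 share a shape, with exercise apart from control and higher at day 10 and overlapping it at day 5. Below 0 were Hebp2, a heme-binding protein (-1.16 ± 0.24), Arl16, an ARF-like GTPase (-1.34 ± 0.31), Foxf1, a forkhead factor (-2.73 ± 0.66), and Spock2, a proteoglycan of neural matrix (-1.21 ± 0.30). Of these, Hebp2, Foxf1 and Spock2 had exercise apart from control and lower at day 10, and Arl16 had exercise apart and higher at day 5. All 10 of these genes had an adjusted p of 0.4. They were chosen by the contrast from these same libraries, so their shapes are a description only. Foxf1 dropped out under the stricter filter on low counts and has no adjusted p in the authors' deposited day 5 table.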

How the data were processed

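RNA-seq was run on lysolecithin lesions of mouse spinal cord, 16 libraries in 4 groups. The deposited values used are raw counts per Ensembl gene; per the file headers they were made by the authors with featureCounts 1.5.0-p1 counting on the read strand, and the submitters' processing notes also name TopHat2 2.0.10, Bowtie 1.1.2 and GRCm38. The log2 fold changes and adjusted p-values quoted as the authors' come from their deposited tables, for which the processing notes name DESeq2 1.12.4.

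Counts were tested with edgeR 4.0.16 (TMM scaling, filterByExpr with a minimum count of 10, robust quasi-likelihood fit, 1 mean per group, 12 residual degrees of freedom, Benjamini-Hochberg adjustment over 15096 of 46078 genes, threshold 0.05). The standard error was taken as the log2 value divided by the root of the F statistic. CPM used TMM-scaled library sizes, and list levels a prior count of 2. Alternatives were DESeq2 1.42.0, limma-voom (limma 3.58.1), other scalings and filters, covariates and each library left out.

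Genes named are the 10 nearest to passing in each direction, the members of each list with the smallest p, genes that passed at day 10, crossing genes and a fixed set, less a few that are not reported here; Selenos, Pdia3, Sec61b, Pdia6, Hsp90b1, Canx, Calr, Hspa1a, Pdia4, Dnajb9, Sec61a1, Csf3r and Mmp8 were added after their values were seen. The contrast and the gene lists were chosen with earlier results of these data known. Library pairs within a group differed by more than sampling noise (chi-square per degree of freedom 9.85 to 58.07), so none was treated as deposited a second time.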

Additional observations from a re-analysis of the deposited data

Results flagged for a closer look

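In groups of 4 libraries, 1 library was set against the other 3 for the level of the 17 genes followed in every library, the level of 6 gene lists, the total count and the mt-Rnr2 share. Of 100 such groups 5 had a library farther from the others than Dixon's 95% limit allows, where chance gives about 1 in 20, or 5. Emcn in exercise replicate 17 of day 10 was at 5.17 CPM against 6.49 to 6.74 CPM. Slco1a4 in control replicate 5 of day 10 was at 124 CPM against 90.9 to 95.8 CPM. Control replicate 5 of day 5 was lowest for Vcam1, at 47.7 CPM against 52.7 to 53.2 CPM, and highest for Xbp1, at 228 CPM against 198 to 203 CPM. Zbtb16 in control replicate 4 of day 10 was at 0.279 CPM against 0.636 to 0.683 CPM. The ranges given for these genes in the results include these libraries.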

How the results depend on the processing

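The count of 0 genes past the adjusted threshold held in 24 of 26 alternatives. DESeq2 gave 13 (6 above 0 and 7 below, of 10977 genes with an adjusted p, smallest 0.00228): Fkbp5, Pag1, Acer3, Tars2, Manf and Ssh2 above, and among those below Vcam1, Lcn2, Gm16685, Hebp2, Arl16 and Slc7a11, and the cause was not tested. Leaving out 1 library at a time gave 0 to 1, the 1 being Lcn2 without exercise replicate 1 of day 5, and 1038 (without exercise replicate 17 of day 10) to 1897 (without exercise replicate 13 of day 10) genes at an unadjusted p under 0.05. That number was 799 with the mt-Rnr2 share and 1102 with total count as a covariate. The smallest adjusted p ran from 0.00228 to 0.669 over all alternatives.

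Of 2928 values for 113 named genes, 22 in 7 genes changed sign; of these genes Snap25 (-1.2) and Hspa1a (-0.46) were not near 0. With the mt-Rnr2 share as a covariate, Snap25 was at 0.08, Pdgfra at -0.03, Arg1 at -0.08 and Igf1 at -0.26. With limma-voom Arg1 was at -0.02 and Igf1 at -0.03, and with the stricter filter Igf1 was at -0.01. With total count as a covariate Olig2 was at 0 and Hspa1a at 0.03. Leaving out single libraries gave Cd68 -0.05 to 0.37, Arg1 -0.2 to 0.5, Olig2 -0.12 to 0.07 and Igf1 -0.18 to 0.12. Of 33 lists followed, 25 kept the sign of their median in every alternative; the others (complement, reparative macrophages, collagens, IGF axis, growth factors, glucocorticoid response, immediate early genes and PGC1a axis) have medians near 0.

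No paired analysis was possible for the contrast because the exercise libraries of day 10 share no replicate number with another group. For day 5, where control and exercise share the numbers 1 and 2, a replicate block left 2 residual degrees of freedom. It gave 0 genes past the adjusted threshold, and 1337 at an unadjusted p under 0.05 against 1513 without it. With so few degrees of freedom, 0 calls cannot show whether pairing matters. Same-numbered libraries had correlations of deviations of -0.07 to 0.07. A correlation over all genes cannot tell whether same-numbered libraries were handled together. Precision is limited by 4 libraries a group, by amplified RNA and, for genes near 1 CPM such as Zbtb16 and Adh1, by few counts. The same limit holds for Foxf1, Slc6a13, Filip1 and Rrad, which dropped out under the stricter filter on low counts.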
